A study of Mus musculus with 24 samples.

Results

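Hmgcs1, Sqle, Insig1, Srebf2, Idi1, Fdft1 and Cyp51, genes of cholesterol synthesis and its control, were followed in the hippocampus of mice with and without the transcription factor gene Egr1. The 7 genes were taken by symbol and matched to their Ensembl identifiers in a count table of 36605 genes, not by a threshold on measured values. All 7 passed the filter on low counts that left 19742 genes for testing. Polyadenylated RNA of the hippocampus of adult mice was sequenced without strand information, 1 library for each of 24 mice. There were 6 mice of each of 4 genotypes, 3 females and 3 males. Complete wild type mice, Egr1wtNesCre-, carried neither the floxed Egr1 allele nor Cre. Floxed control mice, Egr1fNesCre- (Egr1cKO control in the labels), carried the floxed allele of strain Egr1_tm1a_A04 on C57BL/6N without Cre, and Cre control mice, Egr1wtNesCre+, carried the Nestin-Cre transgene B6.Cg-Tg(Nes-Cre)1Kln/J without the floxed allele. Egr1cKO mice, Egr1fNesCre+, carried both. The Nestin promoter is active in neural precursors, so in these mice Cre acts in neurons and glia of the whole brain and not only of the hippocampus, and a bulk library cannot tell fewer cells of a type from less RNA in each cell.

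Cells build cholesterol from acetyl-CoA. The enzyme encoded by Hmgcs1 makes HMG-CoA early in the pathway, Idi1 interconverts the isoprenoid building blocks, Fdft1 joins farnesyl units into squalene, Sqle oxidises squalene, and Cyp51 demethylates lanosterol on the way to cholesterol. Srebf2 encodes SREBP2, the membrane-bound factor that enters the nucleus when sterols are low and switches on these genes, and the protein of Insig1 holds SREBP2 and its escort Scap in the endoplasmic reticulum when sterols are plentiful. The brain makes its own cholesterol, since lipoproteins of the blood do not cross the blood-brain barrier, with oligodendrocytes and astrocytes as major producers. EGR1 is a zinc finger protein that neurons induce with activity, and it has been reported to bind genes of cholesterol synthesis in other tissues, which is the question behind comparing Egr1cKO mice with each control genotype.

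The promoters show what the members share in sequence. RefSeq promoter windows on GRCm38.p6, 250 bases before to 50 bases after the start, were matched for 5 of the 7 genes, and Sqle and Fdft1 had no entry. The RefSeq starts are not those of the gene positions given further on: for Hmgcs1 the RefSeq start lies 28 bases before the annotated gene, and for Insig1, Srebf2, Idi1 and Cyp51 it lies 49, 88, 105 and 49 bases inside it, so that the end of these sequences is within the annotated gene. Below, the bases before the RefSeq start are written 5′ to 3′ along each gene's own strand, 250 for Hmgcs1 and Insig1 and the last 150 for the other genes, and capitals mark CCAAT (read as ATTGG on the other strand), the box bound by NF-Y, and TCACCCCAC, a core of the sterol regulatory element. Hmgcs1 is shown because it held both, and the others because they held the CCAAT box.
Hmgcs1, chr13:119690101-119690350, plus strand: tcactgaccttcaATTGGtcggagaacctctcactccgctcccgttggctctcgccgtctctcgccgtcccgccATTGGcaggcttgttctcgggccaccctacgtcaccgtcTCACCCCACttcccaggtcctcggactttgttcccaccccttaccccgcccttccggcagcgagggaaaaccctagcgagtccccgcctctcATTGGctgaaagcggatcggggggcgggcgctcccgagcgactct
Insig1, chr5:28071162-28071411, plus strand: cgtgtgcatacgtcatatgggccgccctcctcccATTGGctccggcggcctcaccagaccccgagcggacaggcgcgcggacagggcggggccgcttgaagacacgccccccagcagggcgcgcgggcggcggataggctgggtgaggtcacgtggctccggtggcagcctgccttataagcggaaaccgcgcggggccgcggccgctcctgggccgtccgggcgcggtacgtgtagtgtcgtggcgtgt
Srebf2, chr15:82147119-82147268, plus strand: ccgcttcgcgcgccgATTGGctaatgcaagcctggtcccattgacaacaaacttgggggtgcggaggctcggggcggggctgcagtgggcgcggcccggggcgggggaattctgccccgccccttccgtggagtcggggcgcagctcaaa
Idi1, chr13:8885456-8885605, plus strand: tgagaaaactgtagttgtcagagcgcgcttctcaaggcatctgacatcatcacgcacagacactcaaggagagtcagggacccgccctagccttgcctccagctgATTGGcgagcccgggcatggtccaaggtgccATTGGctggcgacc
Cyp51, chr5:4104698-4104847, minus strand: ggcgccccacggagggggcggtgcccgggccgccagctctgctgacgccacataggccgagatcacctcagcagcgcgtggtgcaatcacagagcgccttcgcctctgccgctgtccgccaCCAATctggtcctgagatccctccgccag
On both strands, CCAAT was found in each of the 5 windows, with 4 matches in Hmgcs1, 2 in Idi1 and 1 in each of the others, against 37.4% of 32851 promoters of the same length. The sterol element core was found in Hmgcs1 alone, beginning 137 bases before the start, and in 0.551% of all promoters. Neither GCGTGGGCG nor GCGGGGGCG, the binding sequences of EGR1 that were searched, was found in any of the 5 windows; 0.612% and 2.91% of all promoters held them. A missing match says only that these letters are not in these windows, and the motifs searched do not overlap in the windows shown.

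Library totals ran from 18025168 to 34955004 counts, which put 195 to 505 reads on Idi1, the member with the fewest, and 3798 to 8396 on Srebf2, the member with the most. The targeted gene followed the labels. Egr1 stood at 4.86 to 10.2 CPM (read counts scaled to library size with edgeR's TMM factors) in Egr1cKO mice and at 47.7 to 149 CPM in the 18 controls. Markers of excitatory neurons summed to 5268 to 8353 CPM, whereas those of pituitary endocrine cells, the cell type in the labels being endocrine, summed to 0.899 to 3.84 CPM. The library of Cre control male 2 changed the number of genes called most: without it 982 genes in place of 1 were called between Egr1cKO and Cre control, so the members' values against Cre control are also given without it. The mouse numbers of Egr1wt and Egr1f mice lie in 2 separate ranges, so that a difference of the floxed allele cannot be told apart from one between these series of mice, while Egr1cKO against floxed control and Cre control against complete wild type lie within a series.

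Per kilobase of exon, Hmgcs1 and Srebf2 were the most abundant members, at 31.9 ± 2.45 and 30.8 ± 2.08 CPM per kb (mean ± SD, n = 24), a difference smaller than either SD. Insig1 at 16.7 ± 2.64, Fdft1 at 14.6 ± 1.33 and Cyp51 at 13.9 ± 1.30 CPM per kb followed, with neighbours that differed by less than the larger of their SDs. Sqle stood at 9.78 ± 0.882 and Idi1 at 4.27 ± 0.668 CPM per kb, below the others by more than these SDs. Insig1 and Idi1 varied most between mice, with a coefficient of variation of 15.8% and 15.7%, and Srebf2 least, with 6.78%. Genes of a like level, within 1.25-fold, were compared by their SD within groups of 1 sex and genotype. Of these, 86.7% had a smaller SD than Insig1, 65.0% a smaller one than Idi1 and 16.6% a smaller one than Srebf2.

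**Figure D1:**
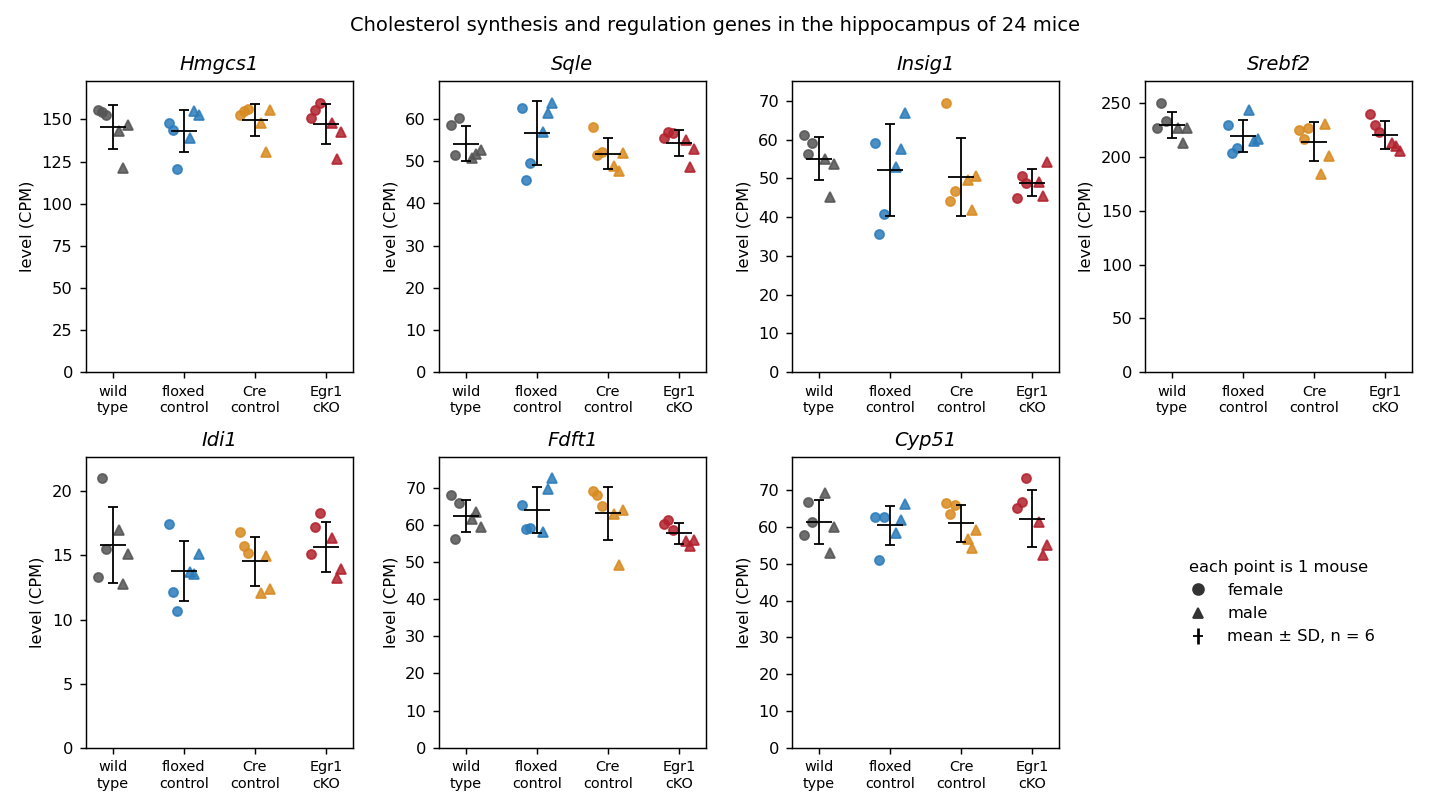
Level of each of the 7 genes in CPM (vertical axes, from 0) in each of 24 mice by genotype, circles for females and triangles for males, with the mean and SD of 6 mice in black. The groups overlap in every panel; the Egr1cKO mice of Fdft1 lie between 54.3 and 61.3 CPM, and Insig1 spreads from 35.7 to 69.6 CPM over all mice.

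None of the 7 genes was called different between Egr1cKO mice and any control genotype. A call needed a 1.2-fold change or more and an adjusted p no higher than 0.05 in edgeR's quasi-likelihood test, with Benjamini-Hochberg adjustment over all 19742 genes. Against floxed control mice 0 of 7 were called, where 0.0304% of all genes were, against Cre control mice 0 of 7, where 0.00507% were, and against complete wild type mice 0 of 7, where 0.0253% were. In these 3 comparisons no member had an unadjusted p under 0.05 and DESeq2 called none. Without Cre control male 2, where 20642 genes passed the filter on low counts and 4.76% of them were called against Cre control, 0 of 7 members were called, and the log2 fold changes against Cre control were -0.042 for Hmgcs1, 0.15 for Idi1, -0.18 for Fdft1, 0.061 for Sqle, 0.019 for Cyp51, 0.085 for Srebf2 and -0.087 for Insig1, each with the sign it had with that mouse. The comparisons share the 6 Egr1cKO mice, so they are not separate evidence. The ranges of Egr1cKO and control mice overlapped for every member and every control genotype.

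Of the enzymes before squalene, Hmgcs1, the synthase that feeds the mevalonate pathway, lies at chr13:119690379-119708260 on the plus strand (GRCm38, Ensembl ENSMUSG00000093930). The lowest, the median and the highest CPM of Hmgcs1 over 6 mice were 121, 149.7 and 156 in complete wild type mice, 121, 146 and 155 in floxed control mice, 131, 154 and 156 in Cre control mice and 127, 149 and 160.0 in Egr1cKO mice. Each group held 1 mouse between 121 and 131 CPM, and the others lay together above it. The log2 fold change of Egr1cKO was 0.037 ± 0.068 (SE) against floxed control, -0.024 ± 0.068 against Cre control and 0.017 ± 0.068 against complete wild type, with adjusted p of 0.829, 0.896 and 0.989. The 95% intervals of all 3 lay inside a 1.2-fold difference, which is 0.263 on the log2 scale. Idi1, the isomerase that supplies the allylic isoprenoid unit, lies at chr13:8885501-8892451 on the plus strand. Its CPM values were 12.8, 15.3 and 21.02 in complete wild type mice, 10.7, 13.6 and 17.5 in floxed control mice, 12.1, 15.1 and 16.9 in Cre control mice and 13.2, 15.7 and 18.3 in Egr1cKO mice. The floxed control held the lowest mouse and complete wild type the highest, and 5 of 6 Egr1cKO mice were above the median of floxed controls. Idi1 differed by 0.18 ± 0.12 against floxed control, 0.11 ± 0.12 against Cre control and -0.012 ± 0.12 against complete wild type on the log2 scale, with adjusted p of 0.477, 0.678 and 0.996. The interval against floxed control ran from -0.067 to 0.42, so a difference of 1.2-fold was neither called nor excluded for Idi1 at this spread.

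Fdft1, squalene synthase, at chr14:63145150-63179578 on the minus strand, had the smallest unadjusted p of the members against each control genotype. Its CPM values were 56.1, 62.5 and 68.0 in complete wild type mice, 58.2, 62.2 and 72.5 in floxed control mice, 49.1, 64.6 and 69.1 in Cre control mice and 54.3, 57.3 and 61.3 in Egr1cKO mice. No Egr1cKO mouse was above the median of any control genotype, yet controls reached down to 49.1 CPM. On average Fdft1 stood at 57.7 ± 2.79 CPM (mean ± SD, n = 6) in Egr1cKO mice, against 63.9 ± 6.21 in floxed control, 63.0 ± 7.23 in Cre control and 62.4 ± 4.34 in complete wild type mice. The log2 fold changes were -0.15 ± 0.074, -0.13 ± 0.074 and -0.12 ± 0.074 in the same order, with adjusted p of 0.327, 0.407 and 0.900. When all 18 controls were taken as 1 group, Fdft1 had a log2 fold change of -0.13 ± 0.059, an unadjusted p of 0.034 and an adjusted p of 0.306 in edgeR's test, so it was not called, where 0.00507% of all genes were, and the other 6 members had unadjusted p of 0.293 or more. The lowest control was Cre control male 2. Without that mouse the log2 fold change of Fdft1 against Cre control was -0.18 ± 0.065 with an adjusted p of 0.105, and against the remaining controls -0.14 ± 0.051 with an adjusted p of 0.178. Of the 4227 exonic bases of Fdft1, 774 are also exonic in Ctsb, a lysosomal protease gene on the opposite strand, and without strand the reads there cannot be told apart.

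Sqle, squalene epoxidase, at chr15:59315077-59331192 on the plus strand, gave CPM values of 50.8, 52.1 and 60.1 in complete wild type mice, 45.7, 59.1 and 63.9 in floxed control mice, 47.6, 51.8 and 58.2 in Cre control mice and 48.7, 55.3 and 56.8 in Egr1cKO mice. The floxed controls held both ends of the range, and the Egr1cKO mice lay within it. Its log2 fold changes were -0.065 ± 0.076 against floxed control, 0.069 ± 0.076 against Cre control and 0.0017 ± 0.076 against complete wild type, with adjusted p of 0.709, 0.686 and 0.999. Cyp51, the lanosterol demethylase, at chr5:4081145-4104746 on the minus strand, gave 52.9, 60.8 and 69.2 in complete wild type mice, 51.0, 62.4 and 66.2 in floxed control mice, 54.4, 61.3 and 66.6 in Cre control mice and 52.3, 63.2 and 73.3 in Egr1cKO mice. The highest of all 24 mice was an Egr1cKO female and an Egr1cKO male was near the bottom. Cyp51 differed by 0.036 ± 0.077, 0.029 ± 0.077 and 0.018 ± 0.077 on the log2 scale, with adjusted p of 0.854, 0.890 and 0.989. For Sqle and Cyp51 all 3 intervals lay inside a 1.2-fold difference. Cyp51 shares 166 of 4415 exonic bases with Akap9 on the opposite strand, Hmgcs1 557 of 4594 with the antisense gene Gm48342, and Idi1 323 of 3505 with Gm48574, so a part of their reads is uncertain, whereas Sqle and Insig1 overlapped no other gene.

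Of the regulators, Srebf2, at chr15:82147181-82205379 on the plus strand with the gene of the microRNA Mir33 in an intron, was the steadiest. Its CPM values were 213, 227 and 251 in complete wild type mice, 204, 216 and 244 in floxed control mice, 184, 221 and 231 in Cre control mice and 206, 218 and 239.8 in Egr1cKO mice. The Egr1cKO mice lay within the range of the controls, and the lowest mouse was Cre control male 1. The log2 fold changes of Srebf2 were 0.0026 ± 0.060, 0.041 ± 0.060 and -0.061 ± 0.060 against floxed control, Cre control and complete wild type, with adjusted p of 0.990, 0.770 and 0.938, and all 3 intervals excluded a 1.2-fold difference. Insig1, at chr5:28071363-28078662 on the plus strand, gave CPM values of 45.2, 55.6 and 61.2 in complete wild type mice, 35.7, 55.3 and 66.9 in floxed control mice, 41.7, 48.2 and 69.6 in Cre control mice and 45.0, 48.9 and 54.4 in Egr1cKO mice. The Egr1cKO mice were the tightest group, with an SD of 3.45 CPM, and the floxed controls the widest, with 11.8 CPM. No Egr1cKO mouse was above the median of floxed control or complete wild type, while 4 of 6 were above that of Cre control. Insig1 had log2 fold changes of -0.095 ± 0.12, -0.046 ± 0.12 and -0.17 ± 0.12, with adjusted p of 0.748, 0.890 and 0.908, and intervals that reached -0.43, so a decrease of 1.2-fold was neither called nor excluded.

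**Figure D2:**
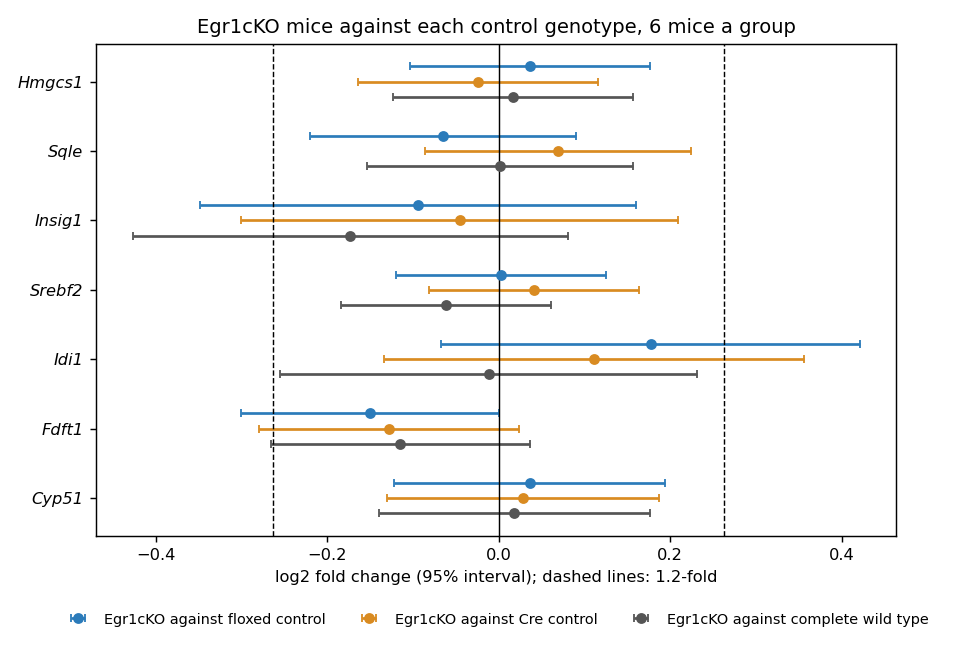
Log2 fold change of each gene in Egr1cKO mice against each control genotype (horizontal axis; points are edgeR estimates, bars 95% intervals, 6 mice a group), with dashed lines at a 1.2-fold difference. Every interval crosses 0, those of Hmgcs1, Sqle, Srebf2 and Cyp51 lie between the dashed lines in all 3 comparisons, and the estimates of Fdft1 lie between -0.15 and -0.12.

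The control genotypes were also compared among themselves. Between floxed control and complete wild type 0 of 7 members were called, where 0% of all genes were, with 0 members and 1323 genes at an unadjusted p under 0.05 and 5 genes called by DESeq2. The estimates ran from -0.19 ± 0.12 for Idi1 to 0.067 ± 0.076 for Sqle on the log2 scale. Between Cre control and complete wild type again 0 of 7 were called, where 0% were, with 0 members and 1168 genes at an unadjusted p under 0.05 and 8 genes called by DESeq2, and Srebf2 came nearest at -0.10 ± 0.060 with an adjusted p of 0.780. The interaction of floxP and Nestin-Cre asks whether Egr1cKO departs from the sum of both parts. It called 0 of 7 members, where 0.00507% of all genes were called, and was largest for Idi1 at 0.30 ± 0.17 on the log2 scale with an adjusted p of 0.346. Without Cre control male 2 it was 0.34 ± 0.18 for Idi1 and -0.21 ± 0.090 for Fdft1, with adjusted p of 0.245 and 0.152.

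The other genes of the pathway are read against the same shares of all genes called, 0.0304%, 0.00507% and 0.0253%, at which the absence of a call says little about a short list. From acetyl-CoA to lanosterol, 0 of 7 genes besides the members passed the test against any control genotype, with a median log2 fold change of -0.026 against floxed control, -0.088 against Cre control and -0.028 against complete wild type, where the medians over all genes were -0.012, -0.023 and -0.0042. From lanosterol to cholesterol 0 of 9 besides Cyp51 passed, with medians of 0.024, -0.0013 and 0.053, and of 5 other genes that regulate SREBP 0 passed, with medians of -0.027, 0.035 and -0.011. Without Cre control male 2, 1 of 7, 0 of 9 and 0 of 5 were called against Cre control, beside 4.76% of all genes. For Mvd, Lss, Msmo1, Dhcr7, Srebf1, Insig2 and Scap the estimates lay between -0.14 and 0.11 and the lowest adjusted p was 0.458.

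Uptake and export genes were described in the same way. Of 12 genes of uptake and intracellular transport 0 passed against any control, with medians of 0.055, 0.031 and 0.050. An unadjusted p under 0.05, which 15.4%, 15.3% and 5.9% of all genes had against floxed control, Cre control and complete wild type, was found for 2, 1 and 0 of the 12. Among these, named after their values were seen, were Stard3, a sterol transfer protein of endosomes, at -0.25 ± 0.088 on the log2 scale against floxed control with an adjusted p of 0.238 in edgeR's test, and Lrp1, a large endocytic receptor, at 0.54 ± 0.12 against Cre control with an adjusted p of 0.189. Lrp1 had 0.18 ± 0.12 against floxed control and 0.11 ± 0.12 against complete wild type. The log2 fold changes of Stard4, a sterol carrier, lay between -0.12 and -0.014. Of 11 tested genes of efflux, storage and turnover 0 passed, with medians of -0.070, -0.054 and 0.017. Abca1, the exporter that loads cholesterol onto apolipoprotein E, had log2 fold changes of 0.42 ± 0.13, 0.47 ± 0.13 and 0.32 ± 0.13 and adjusted p of 0.235, 0.199 and 0.800 in edgeR's test. Apoe lay between -0.13 and 0.055 and Cyp46a1, which hydroxylates cholesterol for export from neurons, between -0.070 and 0.054. Of 10 fatty acid genes that SREBP1 drives 0 passed, with medians of 0.13, 0.13 and 0.088, among them Fasn, fatty acid synthase, at 0.25 ± 0.11, 0.31 ± 0.11 and 0.11 ± 0.11, and Scd1, a desaturase, at 0.10 ± 0.097, -0.013 ± 0.097 and 0.16 ± 0.097. Without Cre control male 2, 1 of 12, 1 of 11 and 1 of 10 genes of these 3 lists were called against Cre control, where 4.76% of all genes were: Lrp1 at 0.56 ± 0.12, Abca1 at 0.56 ± 0.13 and Fasn at 0.41 ± 0.10 on the log2 scale, with adjusted p of 0.0183, 0.0183 and 0.0238 in edgeR's test.

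The sexes were compared next. Over all 24 mice 0 of 7 members were called between females and males, where 0.0658% of all genes were, with no member at an unadjusted p under 0.05 and none called by DESeq2. The estimates, female against male, ran from -0.014 ± 0.088 for Insig1 to 0.15 ± 0.084 for Idi1 on the log2 scale, and 6 of 7 were above 0. In complete wild type and Cre control mice all 7 members were higher in females, by 0.032 to 0.20 and by 0.092 to 0.28 on the log2 scale, and in Egr1cKO mice 6 of 7 were, with Cyp51 at 0.29 ± 0.10 and Insig1 at -0.045 ± 0.16. In floxed control mice all 7 were lower in females, by values from -0.067 ± 0.17 for Idi1 to -0.39 ± 0.16 for Insig1. These differences within a genotype, of 3 females against 3 males, were not tested.

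The floxed control females differed among themselves. Insig1 stood at 59.0, 35.7 and 40.8 CPM in the 3 floxed control females and at 53.1, 57.6 and 66.9 CPM in the 3 males, so that female 1 lay among the males. Sqle gave 62.6, 45.7 and 49.7 CPM in the females and 56.8, 61.4 and 63.9 CPM in the males, with the same order. Averaged over the 7 members, floxed control females 2 and 3 had the lowest levels of all 24 mice, at -0.21 and -0.18 on the log2 scale from the overall mean, with 7 of 7 and 6 of 7 members below their medians. The next were Egr1cKO male 2 at -0.16 with 7 of 7 below, Cre control male 2 at -0.15 and complete wild type male 2 at -0.13. Cre control female 1, with 0 of 7 below, was the highest at 0.16.

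The effect of Egr1cKO against floxed control was accordingly set out by sex. In females the log2 differences ran from -0.024 ± 0.099 for Fdft1 to 0.32 ± 0.17 for Idi1, and 6 of 7 were above 0. In males they ran from -0.27 ± 0.099 for Fdft1 to 0.038 ± 0.17 for Idi1, and 6 of 7 were below 0. Against floxed control the female difference exceeded the male one in all 7 members, by 0.21 to 0.36 on the log2 scale. Against Cre control the female difference exceeded the male one for Hmgcs1, Srebf2 and Cyp51, and lay below it for Sqle, Insig1, Idi1 and Fdft1. Against complete wild type it was above for Srebf2, Idi1, Fdft1 and Cyp51, and below for Hmgcs1, Sqle and Insig1. Only the sex difference against floxed control was tested. In edgeR's test of the sex difference 0 of 7 members were called, where 0% of all genes were; 3 members and 884 genes, or 4.48%, had an unadjusted p under 0.05, and DESeq2 called 3 genes and no member. These members were Cyp51 at 0.36 ± 0.14, Sqle at 0.31 ± 0.14 and Hmgcs1 at 0.28 ± 0.13, with unadjusted p of 0.0171, 0.0326 and 0.0429 and an adjusted p of 1 in edgeR's test. The direction remained in all 28 alternative fits for each member, while the size for Insig1 went from 0.20 to 0.59 and for Idi1 from 0.15 to 0.52 over these fits. Of the other genes of the pathway, Mvd, the decarboxylase of the mevalonate steps, had 0.52 ± 0.24 with an unadjusted p of 0.0426 and an adjusted p of 1 in edgeR's test.

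**Figure D3:**
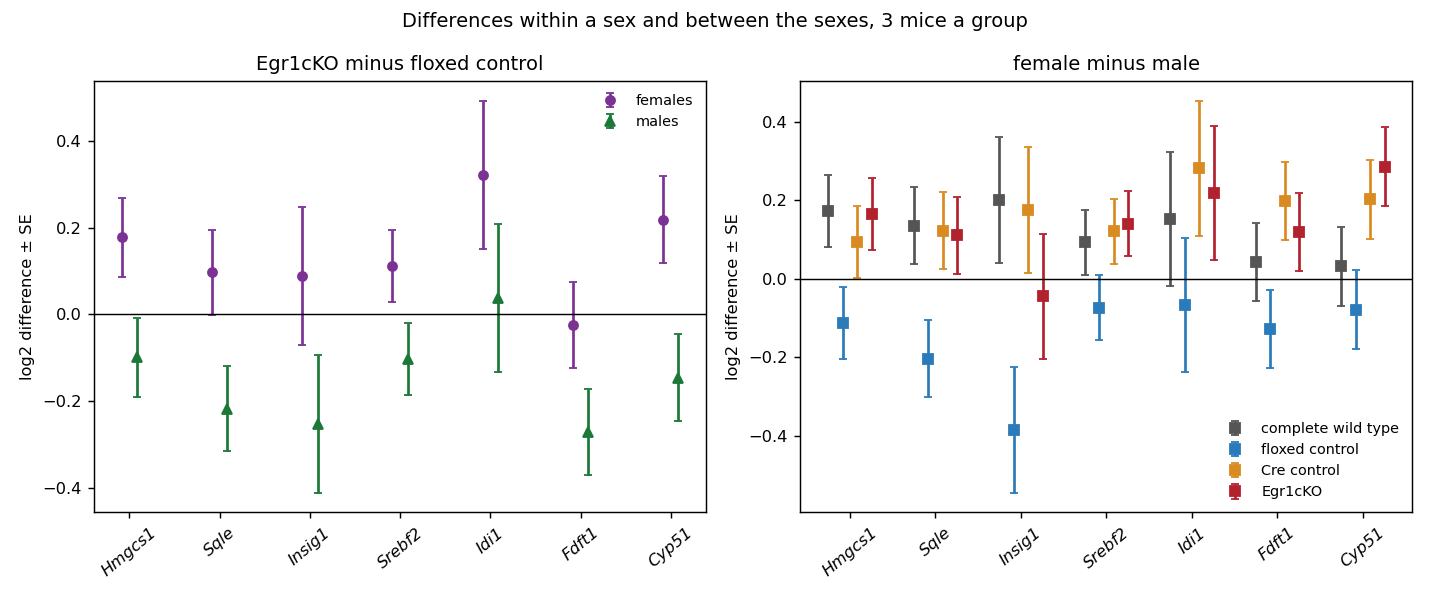
Log2 differences with their SE for each gene, 3 mice a group: on the left Egr1cKO minus floxed control in females (circles) and males (triangles), on the right female minus male in each genotype (squares). On the left the female point lies above the male point for all 7 genes, and on the right the floxed control points lie below 0 for all 7, down to -0.39 for Insig1.

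The members varied together across mice. Over the 24 mice, Pearson's r of log2 levels was above 0 in 19 of 21 pairs, from -0.089 to 0.778 with a median of 0.469, and 11 pairs had an adjusted p of at most 0.05 over the 21 by a 2-sided permutation test with 100000 permutations. By Spearman's rho the median was 0.373 and 7 pairs had such an adjusted p. For a measure of the background, the median r of the members with all other tested genes was -0.0040, and 4.25% of those values exceeded the median of the pairs. With the mean of each group of 1 sex and genotype subtracted, the median was 0.401 and 3 pairs had an adjusted p of at most 0.05. Within the 12 Egr1wt mice the median was 0.430 and within the 12 Egr1f mice 0.491, again with 3 pairs each, and without Cre control male 2 it was 0.436 with 8 pairs.

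Sqle and Insig1 followed each other most closely. Their r was 0.778 and their rho 0.737 over 24 mice, with permutation p of 1e-05, the smallest these permutations can give, and 0.00011, and adjusted p of 0.00021 and 0.00115. It was 0.782 in Egr1wt mice, 0.902 in Egr1f mice, 0.824 with group means subtracted, 0.728 without the 2 mice farthest from the median of Sqle and 0.759 without Cre control male 2. Fdft1 went with this pair, at r of 0.614 with Sqle (rho 0.559, permutation p of 0.0015 and 0.00559, adjusted p of 0.00787 and 0.0256) and 0.548 with Insig1 (rho 0.522, permutation p of 0.00577 and 0.0103, adjusted p of 0.0202 and 0.0360). Without the 2 farthest mice these were 0.530 and 0.523, within Egr1wt mice 0.653 and 0.446, within Egr1f mice 0.744 and 0.628, and with group means subtracted 0.630 and 0.522. The 3 pairs among Sqle, Insig1 and Fdft1 were those that passed the adjustment after group means were subtracted.

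**Figure D4:**
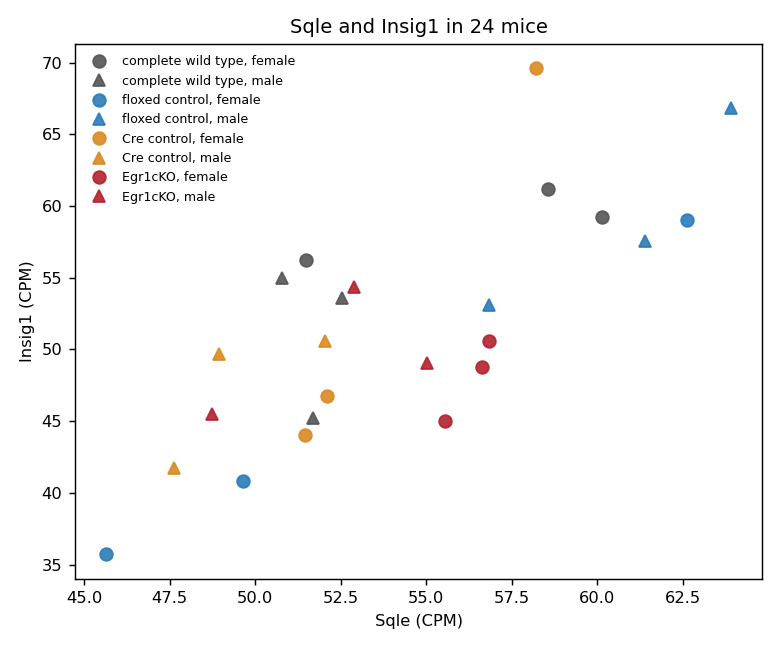
Sqle (horizontal axis, CPM) against Insig1 (vertical axis, CPM) in each of 24 mice, coloured by genotype, circles for females and triangles for males. The points rise together from floxed control female 2 at 45.7 and 35.7 CPM to floxed control male 3 at 63.9 and 66.9 CPM, with r of 0.778.

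Idi1 was related to both Srebf2 and Cyp51. Srebf2 and Cyp51 themselves had an r of 0.445 (adjusted permutation p of 0.0505), and of 0.143 with group means subtracted (adjusted permutation p of 0.619). Srebf2 and Idi1 had an r of 0.666 (rho 0.630, permutation p of 0.0005 and 0.00135, adjusted p of 0.0035 and 0.00945), with 0.810 in Egr1wt mice, 0.491 in Egr1f mice and 0.539 without the 2 farthest mice. Idi1 and Cyp51 had an r of 0.660 (rho 0.738, permutation p of 0.00042 and 4e-05, adjusted p of 0.0035 and 0.00084), with 0.741, 0.608 and 0.794 in the same order. With group means subtracted these were 0.567 and 0.579, with adjusted p of 0.0837 and 0.134. Srebf2 and Fdft1, the gene of the factor and that of squalene synthase, did not rise together in most of these settings: r was -0.089 over all mice, -0.281 in Egr1wt mice, 0.155 in Egr1f mice and -0.666 with group means subtracted, the last with a permutation p of 0.0446 and an adjusted p of 0.134. Srebf2 had the lowest median r with the other members, at 0.327, against 0.411 to 0.489 for the others. Hmgcs1 was related to Sqle, Insig1, Idi1, Fdft1 and Cyp51 at r of 0.469 to 0.572 with adjusted permutation p of 0.0142 to 0.0390. With group means subtracted r was 0.400 to 0.457 for these pairs, with adjusted p of 0.186 to 0.352. Without Cre control male 2, the lowest Cre control mouse for Hmgcs1, r was 0.445 with Sqle, 0.424 with Insig1 and 0.400 with Fdft1, with adjusted p of 0.0668, 0.0731 and 0.0877, while the pairs with Idi1 at 0.548 and Cyp51 at 0.537 still passed. The r of Hmgcs1 and Idi1 was 0.306 without the 2 farthest mice, 0.243 in Egr1wt mice and 0.768 in Egr1f mice. For Hmgcs1 and Cyp51 it was 0.666, 0.615 and 0.549 in the same order.

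**Figure D5:**
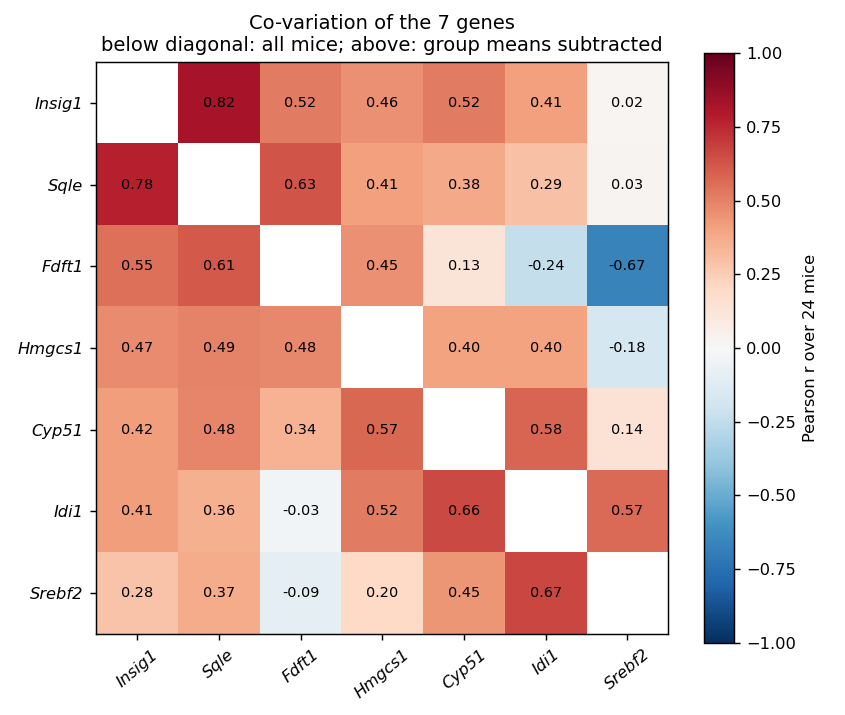
Pearson's r between the log2 levels of each pair of the 7 genes over 24 mice, below the diagonal as measured and above it with the mean of each sex and genotype group subtracted, coloured from -1 (blue) to 1 (red). Insig1, Sqle and Fdft1 form a block at 0.52 to 0.82 on both sides, and Srebf2 with Fdft1 is at -0.09 below and -0.67 above.

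Genes outside the 7 were ranked by how closely they followed the mean of the members, as Pearson's r over 24 mice with group means subtracted, a description with no test since the highest of many values is picked. The 10 most alike were Ano4, Sccpdh, Tmem65, Il33, Arsg, Mapk8, Rxfp1, Bcl2l11, Trmt9b and Ddit4l, with r from 0.865 down to 0.762. None of them is in the lists of the pathway. Of the single members, Hmgcs1 was most alike to Msmo1, the sterol C4 methyl oxidase of the pathway, at r of 0.873. Epb41l1 was most alike to Srebf2 at 0.963, Arl13b to Idi1 at 0.921, Cdh7 to Insig1 at 0.909, Pla2g4a to Sqle at 0.860, Rab3b to Fdft1 at 0.841 and Gab2 to Cyp51 at 0.710. Within the pathway, Stard4 at 0.747, Scd1 at 0.746, Msmo1 at 0.678 and Srebf1 at 0.593 followed the mean of the members, and Scap at -0.529 went against it. Over all tested genes the median was -0.0077 and 2.96% exceeded 0.5, against 1 of 7 other genes from acetyl-CoA to lanosterol, 2 of 9 from lanosterol to cholesterol, 1 of 5 that regulate SREBP, 1 of 12 of uptake, 2 of 10 of fatty acid synthesis and 0 of 11 of efflux. Of the cell type markers 4 of 8 of oligodendrocytes, with a median r of 0.514, and 2 of 4 of oligodendrocyte precursors, with a median of 0.423, exceeded 0.5, larger shares than in any of the pathway lists, while 0 of 8 of astrocytes did, with a median of 0.341. Without subtracting group means the medians were 0.323, 0.365 and 0.371, and 0 of 8, 1 of 4 and 1 of 8 exceeded 0.5.

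Markers of cell types moved with some members. The summed CPM of 8 astrocyte markers followed Srebf2 at r of 0.751 and Idi1 at 0.786 over 24 mice, with rho of 0.729 and 0.772, permutation p of 6e-05 and 2e-05 for r and 0.00017 and 5e-05 for rho, and adjusted p of 0.00315 and 0.0021 for r and 0.00892 and 0.00525 for rho over 105 relations. Both held in Egr1wt mice (0.837 and 0.802), in Egr1f mice (0.740 and 0.827), with group means subtracted (0.797 and 0.747) and without the 2 farthest mice (0.680 and 0.717). By r these were the only relations of the 105 to pass the adjustment; by rho Sqle with the sum of 4 oligodendrocyte precursor markers and Srebf2 with that of 5 excitatory neuron markers passed as well, each with an adjusted permutation p of 0.0444, at r of 0.586 and 0.560. Sqle, Insig1 and Hmgcs1 had r of 0.147 to 0.345 with the astrocyte sum and Fdft1 had -0.255, and Cyp51 had 0.470. The astrocyte sum was 4462 to 5865 CPM in complete wild type, 4340 to 5971 in floxed control, 4244 to 5807 in Cre control and 4610 to 6230 in Egr1cKO mice. Of the 8 markers 1 was called against floxed control and complete wild type, where 0.0304% and 0.0253% of all genes were. This was Aqp4, the water channel of astrocyte endfeet, higher in Egr1cKO mice by 0.82 and 0.69 on the log2 scale. Median log2 fold changes of the 8 were 0.16 against floxed control, 0.073 against Cre control and 0.12 against complete wild type. Aldoc lay below 0 against each, at -0.19 ± 0.071, -0.045 ± 0.071 and -0.033 ± 0.071, and was not called. Against Cre control Aqp4 had 0.28 ± 0.11 with an adjusted p of 0.247 and was not called, nor was it against all 18 controls, at 0.58 ± 0.12 with an adjusted p of 0.102 in edgeR's test; Cre control itself was 0.41 ± 0.11 above complete wild type, with an adjusted p of 0.659.

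Oligodendrocyte markers, of cells that make much of the brain's cholesterol for myelin, had estimates below 0 in Egr1cKO mice that did not pass the test. All 8 were below 0 against each control genotype, with median log2 fold changes of -0.22, -0.26 and -0.16. Of the 8, 0 were called, where 0.0304%, 0.00507% and 0.0253% of all genes were, so that this count says little about the markers, and the smallest adjusted p was 0.206, 0.199 and 0.893. Without Cre control male 2, 2 of 8 were called lower against Cre control, where 4.76% of all genes were called, Mbp by -0.40 ± 0.11 and Mobp by -0.42 ± 0.12 with adjusted p of 0.0402 and 0.0444 in edgeR's test. Of the oligodendrocyte precursor markers 2 of 4 were called higher in the same fit. These were Pdgfra at 0.37 ± 0.10 and Cspg4 at 0.35 ± 0.10, with adjusted p of 0.0395 and 0.0449 in edgeR's test. The other precursor markers, Olig1 and Olig2, were not called in it. With all mice these lay below 0, at -0.018 ± 0.068 and -0.074 ± 0.091 against Cre control. Against floxed control they had -0.12 ± 0.068 and -0.24 ± 0.090, where Pdgfra had 0.34 ± 0.099 and Cspg4 0.12 ± 0.097. The precursor list as a whole thus had no common direction. The sum of the 8 oligodendrocyte markers was 3429 to 4970 CPM in Egr1cKO mice, 4265 to 6265 in floxed control, 4272 to 6543 in Cre control and 4299 to 5859 in complete wild type mice. Over 24 mice Fdft1 had an r of 0.439 with this sum (adjusted p = 0.246, permutation test), the highest of the members, but with group means subtracted Cyp51 at 0.467 and Insig1 at 0.396 stood above Fdft1 at 0.322. The relation of Fdft1 to the excitatory neuron sum was larger, with r of -0.541 (adjusted p = 0.0892, permutation test) and -0.651 with group means subtracted. The part of these cells in the level of Fdft1 was not tested. The sum of 6 choroid plexus markers went from 30.0 to 2037 CPM between libraries, and its r with the members was between -0.198 and 0.389 with none passing the adjustment. Total counts and the share of mitochondrial counts, 4.12% to 6.60%, gave no relation that passed it. Srebf2 had an r of -0.604 with the mitochondrial share (adjusted permutation p of 0.0654) and -0.779 with group means subtracted, while Fdft1 had 0.463 (adjusted permutation p of 0.196) and 0.509, so the members whose r with each other was -0.666 lay on opposite sides of this share. Its part in that relation was not tested.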

How the data were processed

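Hippocampal RNA of 24 mice, 3 of each sex and genotype, was measured, and groups were taken from the titles in the labels. The authors deposited raw counts per Ensembl gene. Per the labels, libraries were polyA selected and non-stranded; the submitters' processing notes name Trim Galore 3.8.2, FastQC, STAR 2.7.9 and GRCm38, and the annotation they counted on is not given in the sources used here. Symbols and positions came from the GENCODE annotation of GRCm38, and promoter sequences from RefSeq.

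Counts were tested as deposited with edgeR 4.0.16 in R 4.3.3 (filterByExpr with a minimum count of 10, TMM, quasi-likelihood test, Benjamini-Hochberg adjustment over 19742 genes). The 4 genotypes were fitted with sex as a covariate, and this fit also gave the interaction and the comparison of the sexes. A further fit, without sex, served the 18 pooled controls. Another, with a mean for each group of 1 sex and genotype, served the differences by sex of the Egr1cKO effect. DESeq2 1.42.0 was an alternative. Calls needed a 1.2-fold change or more and an adjusted p no higher than 0.05; for the interaction and the sex difference no fold minimum was set. CPM for display and correlation were computed from counts and TMM factors, and log2 values used a pseudocount of 0.5. Intervals are at the 95% level. The fits were tested on simulated data. No pair of libraries of a group agreed within sampling noise.

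The 7 members, the gene lists, the markers and the motifs were chosen with earlier results of these data known. Named were all 7 members, list genes by fixed name or when they passed a test, and the genes most alike in pattern. Beyond these, Abca1 was among the fixed names and Aqp4 passed a test. Stard3, Lrp1, Mbp, Mobp, Pdgfra, Cspg4, Olig1, Olig2 and Aldoc were named after their values were seen. Some list genes of fixed name are counted in the lists but not reported here by name. Other columns than the 24 count columns were not used.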

Additional observations from a re-analysis of the deposited data

Results flagged for a closer look

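With 7 genes in 4 genotypes, 28 groups of 6 mice were searched for a mouse whose gap to the nearest of the others exceeds 0.625 of the group's range, and 4 were found; chance alone marks about 1 in 20 groups. Hmgcs1 was at 121.2 CPM in complete wild type male 2, with the next mouse at 142.9 CPM. In Cre control mice Hmgcs1 was at 130.8 CPM in male 2, with the next at 148.1 CPM, and Fdft1 was at 49.08 CPM in the same mouse, with the next at 62.95 CPM. Insig1 was at 69.6 CPM in Cre control female 1, with the next at 50.59 CPM. Of these values 2 come from Cre control male 2, the library whose absence changed the number of genes called against Cre control most. None of the 7 genes was called with or without these mice.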

How the results depend on the processing

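No member was called in any of 1808 values over the 9 comparisons and their alternatives. Values without an adjusted p are not among these. For the interaction DESeq2 gave an adjusted p for Hmgcs1 and Srebf2 only, so the other members have no DESeq2 verdict there. Of the 1808 values, 90 had the other sign than the reported one, all of them uncalled, in 26 of 63 results. The numbers of genes called over the whole table did move. DESeq2 called 50, 34 and 13 genes for Egr1cKO against floxed control, Cre control and complete wild type, 42 against all 18 controls, 335 for the interaction, 5 and 8 for floxed control and Cre control against complete wild type, and 3 for the sex difference, in place of 6, 1, 5, 1, 1, 0, 0 and 0. Without a filter on low counts the numbers were 803, 794, 210, 7, 1173, 82, 175 and 61 in the same order and 79 between the sexes in place of 13; the cause was not tested. With only the mice compared, 3 genes were called against complete wild type, and with sex as a covariate 3 against all 18 controls.

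Leaving out single mice gave 3 to 25 genes against floxed control, 1 to 982 against Cre control, 1 to 6 against complete wild type, 1 to 246 against all 18 controls, 1 to 1455 for the interaction and 0 to 2 for Cre control against complete wild type. The 982 and 1455 arose without Cre control male 2, the 246 and a value of 98 against Cre control without Egr1cKO male 3, and the 25 without floxed control male 1. The count of correlated pairs was 11, 3 with group means subtracted, and 3 within Egr1wt and 3 within Egr1f mice, which hold 12 mice each. Leaving out Cre control male 2, an alternative chosen after seeing the data, gave 8.

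The replicate numbers gave no sign of a pairing of mice across groups. With group means subtracted, same-numbered mice had a mean correlation of -0.0023 and 15 of 84 pairs exceeded 0.1. Mice of different numbers had a mean of 0.0012, and 26 of 168 pairs exceeded 0.1. With the replicate block, 6, 1 and 4 genes were called against floxed control, Cre control and complete wild type, and no member.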
